A study of Mus musculus with 9 samples.

Results

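The testis pathway and Sertoli regulators described here are 10 genes: Sox9, Sox8, Dmrt1, Amh, Dhh, Fgf9, Gata4, Gata1, Nr5a1 and Wt1. They were taken as all probes whose symbol in the platform annotation is one of these names, which gave 14 of the 45281 probes of the array and 9 of the 10 genes. No named probe stood for Wt1, which is therefore not analysed here. RNA of C57BL/6 mouse cells had been hybridised to 9 Illumina bead arrays of a single colour, in 3 groups of 3. The groups were cultured spermatogonial stem cells (SSC, the testis germ cells that self-renew and give rise to sperm), magnetically sorted putative female germ cells (PFGC), which the series title frames as derived from SSC, and magnetically sorted oocytes. The labels name no transgene, treatment, age or tissue of origin and no antibody for the sort, and culture against sorting cannot be told apart from cell type in any comparison with SSC. Whether replicates are separate cultures or animals is not stated, and the p-values therefore cover the spread among these arrays alone, which may be technical.

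Testis fate is set in the supporting cells of the embryonic gonad. SRY and NR5A1 (SF-1) switch on Sox9 there, SOX9 and its relative SOX8 drive Sertoli differentiation, and FGF9 and prostaglandin D2 signalling hold SOX9 on against the ovarian WNT4 and FOXL2 programme. Sertoli cells then secrete AMH, which removes the Müllerian ducts, and DHH, which acts on Leydig and peritubular cells. GATA4, WT1 and NR5A1 act already in the undivided gonad and are used later in both Sertoli and granulosa cells, and AMH is also made by granulosa cells of growing follicles. DMRT1 keeps Sertoli cells from turning towards granulosa fate and is also present in male germ cells. GATA1 is best known from red cells, megakaryocytes and mast cells, and is made by Sertoli cells of the mouse testis.

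RefSeq start-site windows of build GRCm38.p6, from 250 bases before to 50 after the start, were found for 4 of the 10 genes, and all 4 are shown. Any link between these sequences and the levels of the genes was not tested. Capitals mark every match, on either strand, to GGGCGG (the GC box of SP and KLF factors), to the GATA factor motifs spelt AGATAA, or AGATAG, or TGATAA, or TGATAG, to the NR5A1 motifs spelt AAGGTCA, or AAGGCCA, or AGGGTCA, and to the SOX factor motifs spelt AACAAT, or AACAAA.
Dhh, chr15:98898491-98898790, minus strand: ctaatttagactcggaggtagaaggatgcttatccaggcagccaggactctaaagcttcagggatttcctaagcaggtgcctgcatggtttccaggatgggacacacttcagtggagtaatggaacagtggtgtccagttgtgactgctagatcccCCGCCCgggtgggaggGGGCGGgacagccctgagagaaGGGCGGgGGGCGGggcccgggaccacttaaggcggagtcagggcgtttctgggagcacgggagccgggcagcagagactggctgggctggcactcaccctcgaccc
Sox8, chr17:25570637-25570936, minus strand: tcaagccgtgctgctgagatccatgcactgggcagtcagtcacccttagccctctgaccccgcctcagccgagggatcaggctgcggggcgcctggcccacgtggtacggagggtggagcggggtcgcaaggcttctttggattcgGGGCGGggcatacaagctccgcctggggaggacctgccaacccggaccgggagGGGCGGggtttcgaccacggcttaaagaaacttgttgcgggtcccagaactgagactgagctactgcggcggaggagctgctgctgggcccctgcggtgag
Gata1, chrX:7967861-7968160, minus strand: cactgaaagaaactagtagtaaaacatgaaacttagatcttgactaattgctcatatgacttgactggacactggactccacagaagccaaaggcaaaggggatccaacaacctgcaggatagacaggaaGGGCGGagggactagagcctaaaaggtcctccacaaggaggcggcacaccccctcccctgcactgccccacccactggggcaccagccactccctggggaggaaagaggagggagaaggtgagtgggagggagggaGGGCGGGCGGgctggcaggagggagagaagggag
Fgf9, chr14:58072436-58072735, plus strand: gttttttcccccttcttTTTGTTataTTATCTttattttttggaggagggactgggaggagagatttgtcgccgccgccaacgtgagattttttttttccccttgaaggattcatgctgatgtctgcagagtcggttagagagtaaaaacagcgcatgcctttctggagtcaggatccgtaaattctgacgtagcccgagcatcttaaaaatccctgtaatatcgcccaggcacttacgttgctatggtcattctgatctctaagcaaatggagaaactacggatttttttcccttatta
GC boxes stood at 4 places in the Dhh window, at 2 in the Sox8 window and at 3 in the Gata1 window, where those at positions 17 and 21 after the start overlap. The Fgf9 window held no GC box, 1 GATA match at -224 and 1 SOX match at -233. Among 32817 windows of the same length, 35.6% held a GC box, 29.8% a GATA match, 14.2% an NR5A1 match and 27.7% a SOX match. No GATA, NR5A1 or SOX match lay in the Dhh, Sox8 or Gata1 window, which says only that these letters are not in these 300 bases. The Gata1 window is that of a start 8753 bases inside the annotated gene, and the Fgf9 window lies 2015 bases inside, so neither covers the outermost start of its gene. Mouse Gata1 is known to use a distal first exon in testis and a proximal one in red cells.

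Between 17631 and 18919 probes (38.9% to 41.8%) were detected per array, meaning a detection p under 0.01 against the negative controls. The lowest signal of a detected probe lay between 120 and 124 on the SSC arrays, between 116 and 121 on the PFGC arrays and between 128 and 136 on the oocyte arrays, so a deposited signal near these values is background. All 12 markers listed for undifferentiated spermatogonia were detected on all 3 SSC arrays, 9 on all 3 PFGC arrays and 6 on all 3 oocyte arrays. All 11 listed oocyte markers were detected on all 3 arrays of oocytes and of PFGC, and 4 on all 3 SSC arrays. Of 17 listed Sertoli products, 14 were detected on all 3 SSC arrays, 15 on all 3 PFGC arrays and 12 on all 3 oocyte arrays. The arrays numbered 3 departed from their group means in the same way in all 3 groups, and results that change without them are marked.

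Sox9, Sox8, Gata4, Nr5a1, Dhh, Gata1 and, dimly, Amh were detected on all 3 SSC arrays. Through their brightest probes, Sox9, Sox8, Dhh, Gata1 and Amh were lower in PFGC and in oocytes. A second Sox9 probe was not called in either group. Gata4 was not called in either, and the brightest Nr5a1 probe was called lower in oocytes but not in PFGC. Differences below are on the log2 scale of background-corrected, quantile-normalized signal, tested with limma and adjusted by Benjamini-Hochberg over 19934 kept probes, and a gene is called at adjusted p under 0.05 through its brightest kept probe. Of the 8 genes with a kept probe (detected on at least 3 arrays), 5 were lower in PFGC than in SSC and 0 higher by limma (1 higher at an unadjusted p under 0.05, Fgf9), with 3 not called. Among all 11077 genes 26.8% were lower, 23.7% higher and 50.5% called either way, and among all kept probes 48.1% were called. In oocytes against SSC 6 were lower and 1 higher, against 32.4% lower, 28.1% higher and 60.5% called among all genes (57.6% of probes). The 2 comparisons share the SSC arrays. Amh, Dhh, Gata1 and Fgf9 passed the filter on dim probes only through the group in which they were highest and so had to differ, and the counts support nothing about the set. With no filter 9 genes could be tested. In PFGC 5 were lower than in SSC and 0 higher, against 15.5% lower and 13.4% higher among 19057 genes. In oocytes 5 were lower and 1 higher, against 18.9% and 16.4%. The 19057 genes include those too dim to be kept, and the members were chosen with earlier results known. These counts therefore support nothing about the set either.

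**Figure D1:**
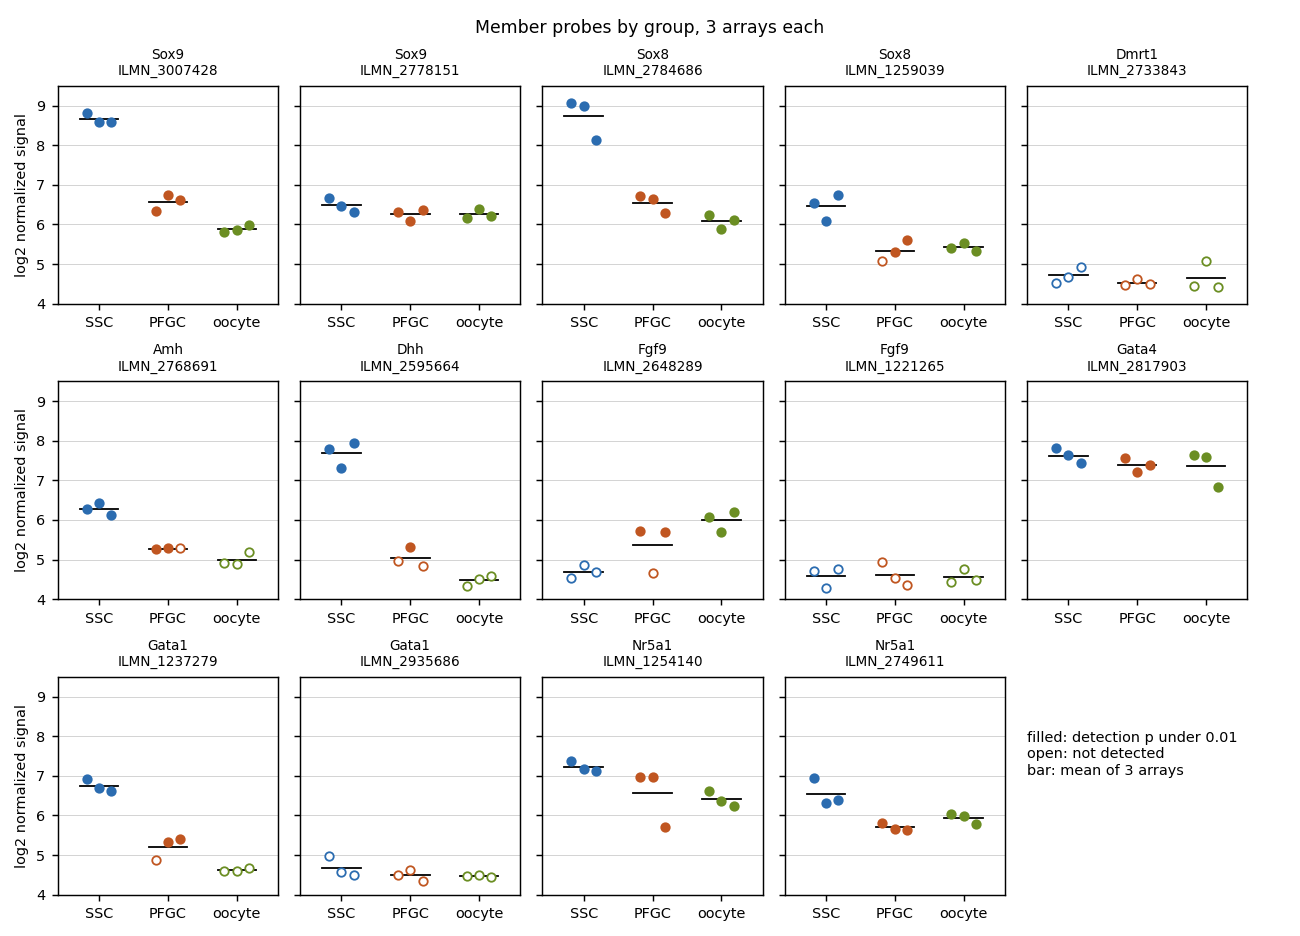
Log2 normalized signal (vertical axis) of all 14 member probes on the 9 arrays, by group; filled points were detected, open points were not, and bars are means of 3 arrays. Sox9 (ILMN_3007428), Sox8, Dhh, Amh and Gata1 (ILMN_1237279) stand above the other groups in SSC, Fgf9 (ILMN_2648289) is highest in oocytes, and Dmrt1 is open on every array.

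Sox9, the transcription factor at the centre of Sertoli fate, gave deposited signals of 553, 443 and 465 on the SSC arrays through probe ILMN_3007428. The signals were 159, 196 and 160 in PFGC and 160, 160 and 151 in oocytes. Every SSC array thus lay well above every other array, while the sorted groups lay closer to background, though detected. The normalized log2 level of Sox9 was 8.66 ± 0.13 (SD, n = 3) in SSC, 6.56 ± 0.20 in PFGC and 5.89 ± 0.09 in oocytes. It was 4.27-fold lower in PFGC (log2 difference -2.10, SE 0.14, adjusted p = 9.83e-07 by limma) and 6.82-fold lower in oocytes (-2.77, adjusted p = 7.11e-08). The second Sox9 probe, ILMN_2778151, which the annotation assigns to the same RefSeq transcript, did not show this. Its signals ran from 160 to 187 on SSC arrays, from 148 to 157 on PFGC arrays and from 162 to 191 on oocyte arrays. All were detected, and on the normalized scale SSC overlapped with both other groups. Its log2 differences were -0.23 against SSC in both groups (both 95% intervals -0.54 to 0.08), neither called by limma (adjusted p = 0.197 and 0.185). With array weights the PFGC difference of this probe was called (-0.39, adjusted p = 0.0275 by limma).

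Sox8, which can stand in for Sox9 once the testis has formed, followed the brighter Sox9 probe. Probe ILMN_2784686 read 650, 554 and 364 in SSC, 182, 189 and 144 in PFGC, and 184, 161 and 158 in oocytes. The SSC arrays did not overlap with the others, although replicate 3 of SSC was lower than its partners. Sox8 was 4.51-fold lower in PFGC (log2 difference -2.17, SE 0.24, adjusted p = 4.24e-05 by limma) and 6.27-fold lower in oocytes (-2.65, adjusted p = 6.55e-06). The second probe, ILMN_1259039, assigned to a cDNA clone, was dimmer and gave smaller differences in the same direction, -1.13 in PFGC (adjusted p = 7.11e-04) and -1.04 in oocytes (8.70e-04 by limma).

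Dmrt1 was not measured above background in any group. Its single probe read 101, 106 and 114 in SSC, 98.3, 105 and 96.5 in PFGC, and 110, 130 and 105 in oocytes, and was detected on 0 of 9 arrays. Without the filter on dim probes its log2 difference was -0.18 in PFGC and -0.06 in oocytes against SSC, not called by limma (adjusted p = 0.608 and 0.884). A dim probe gives no statement on the level of the transcript.

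The secreted signals went apart. Dhh, the hedgehog ligand of Sertoli cells, was near background outside SSC. Its signals were 314, 231 and 331 in SSC, 112, 124 and 105 in PFGC, and 104, 112 and 111 in oocytes. It was thus detected on all 3 SSC arrays, on 1 PFGC array and on no oocyte array. Dhh fell from a log2 level of 7.68 ± 0.33 (SD, n = 3) in SSC to 5.04 ± 0.25 in PFGC, 6.26-fold (log2 difference -2.65, SE 0.19, adjusted p = 1.75e-06 by limma), a size that rests on values mostly below detection in PFGC. Without background correction the difference was -1.30 in PFGC, smaller than those of Sox8 (-1.51) and Sox9 (-1.44) under the same setting. In oocytes Dhh was at least 5.56-fold lower than in SSC (adjusted p = 2.44e-07 by limma, measured mean 4.48). Here and below, "at least" means that the dim group was given, array by array, the lowest level of any detected probe wherever its own level was below that.

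Amh was dim everywhere. Its signals were 160, 163 and 151 in SSC, 119, 123 and 114 in PFGC, and 127, 124 and 127 in oocytes, detected on all 3 SSC arrays, 2 PFGC arrays and 0 oocyte arrays. The log2 level of Amh was 6.28 ± 0.15 in SSC and 5.27 ± 0.01 in PFGC, a 2.01-fold difference (log2 difference -1.01, SE 0.13, adjusted p = 1.26e-04 by limma). In oocytes, with a mean of 4.99, it was at least 2.10-fold lower (adjusted p = 1.40e-05 by limma). On the normalized scale the SSC arrays did not overlap with either group. Without background correction the PFGC difference was -0.39.

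Fgf9 ran the other way. Probe ILMN_2648289 read 101, 111 and 108 in SSC, all at background, 133, 106 and 125 in PFGC, and 173, 152 and 161 in oocytes. The oocyte arrays did not overlap with SSC, and the PFGC arrays were split, since replicate 2 lay at background. Fgf9 was at least 1.64-fold higher in oocytes than in SSC (log2 levels 5.99 ± 0.26 and 4.69 ± 0.17, adjusted p = 0.00182 by limma). In PFGC, whose arrays overlapped with SSC, the log2 difference of Fgf9 was 0.68 and was not called (adjusted p = 0.0584 by limma). It was called under 3 of 22 alternatives: with cyclic loess (0.0456), with the replicate block (0.0411) and without PFGC replicate 2 (adjusted p = 0.00163 by limma). The second Fgf9 probe, ILMN_1221265, was detected on 0 of 9 arrays, with signals from 90.4 to 121.

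Among the factors of the early gonad, which the ovary shares, Gata4 was not called against SSC, and the call of Nr5a1 in PFGC depended on the probe. Gata4, a zinc finger factor of Sertoli and granulosa cells, read 317, 271 and 255 in SSC, 259, 238 and 211 in PFGC, and 327, 318 and 199 in oocytes. All arrays detected it and the groups overlapped. Its log2 difference from SSC was -0.24 in PFGC (95% interval -0.72 to 0.24, adjusted p = 0.388 by limma) and -0.27 in oocytes (-0.75 to 0.21, adjusted p = 0.310), so a fall as large as that of Amh in either group (-1.01 and -1.29) lies outside the intervals. None of the 23 alternatives gave a call against SSC by limma, with adjusted p from 0.108 to 0.978.

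Nr5a1, the nuclear receptor that drives steroid enzyme genes in gonad and adrenal, was measured by 2 probes. Probe ILMN_1254140 read 256, 216 and 221 in SSC, 201, 216 and 125 in PFGC, and 210, 190 and 163 in oocytes. PFGC replicate 3 lay apart from its group but was detected. The log2 difference of this probe was -0.66 in PFGC (adjusted p = 0.0926 by limma, and 0.0385 with the replicate block) and -0.81 in oocytes (adjusted p = 0.0392). Without PFGC replicate 3 the PFGC difference was -0.24 (adjusted p = 0.245 by limma). The oocyte call ended without SSC replicate 1 (0.107), SSC replicate 2 (0.0684), SSC replicate 3 (0.0613), oocyte replicate 2 (0.0898) or oocyte replicate 3 (adjusted p = 0.105 by limma), and also without normalization (0.115) or without the filter on dim probes (0.0850). The second probe, ILMN_2749611, was called below SSC in both groups, with -0.85 in PFGC (SE 0.17, adjusted p = 0.00240) and -0.62 in oocytes (adjusted p = 0.0111 by limma, but 0.130 without normalization). Its signals ran from 158 to 210 on SSC arrays, from 123 to 137 on PFGC arrays and from 144 to 172 on oocyte arrays.

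Gata1 was lower outside SSC through the probe that could be measured. Probe ILMN_1237279 read 208, 180 and 179 in SSC, 109, 125 and 117 in PFGC, and 117, 115 and 114 in oocytes, so the SSC arrays lay above all others. The log2 level was 6.74 ± 0.17 in SSC and 5.20 ± 0.29 in PFGC, where it was detected on 2 arrays, a 2.91-fold difference (-1.54, SE 0.16, adjusted p = 2.57e-05 by limma, and -0.65 without background correction). It was detected on no oocyte array and was at least 2.90-fold lower there (measured mean 4.63, adjusted p = 1.61e-06 by limma). The other Gata1 probe, ILMN_2935686, assigned to the same RefSeq transcript, read 90.9 to 113 and was detected on no array. Of 11 listed erythroid, megakaryocyte and mast cell genes with a probe, the factors Gfi1b, Klf1, Nfe2 and Tal1 were detected on no array. Of the 7 tested, 2 were higher and 2 lower in PFGC than in SSC (23.7% and 26.8% of all genes). The mast cell protease gene Cpa3, detected on no PFGC array, was at least 1.45-fold lower there (adjusted p = 0.0210 by limma), and the heme synthesis gene Alas2 was 1.75-fold higher (0.00200). The summed signal of the 11 genes ran from 17051 to 25927 in SSC, from 28648 to 35852 in PFGC and from 35954 to 42359 in oocytes, and its part in the Gata1 values was not tested.

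**Figure D2:**
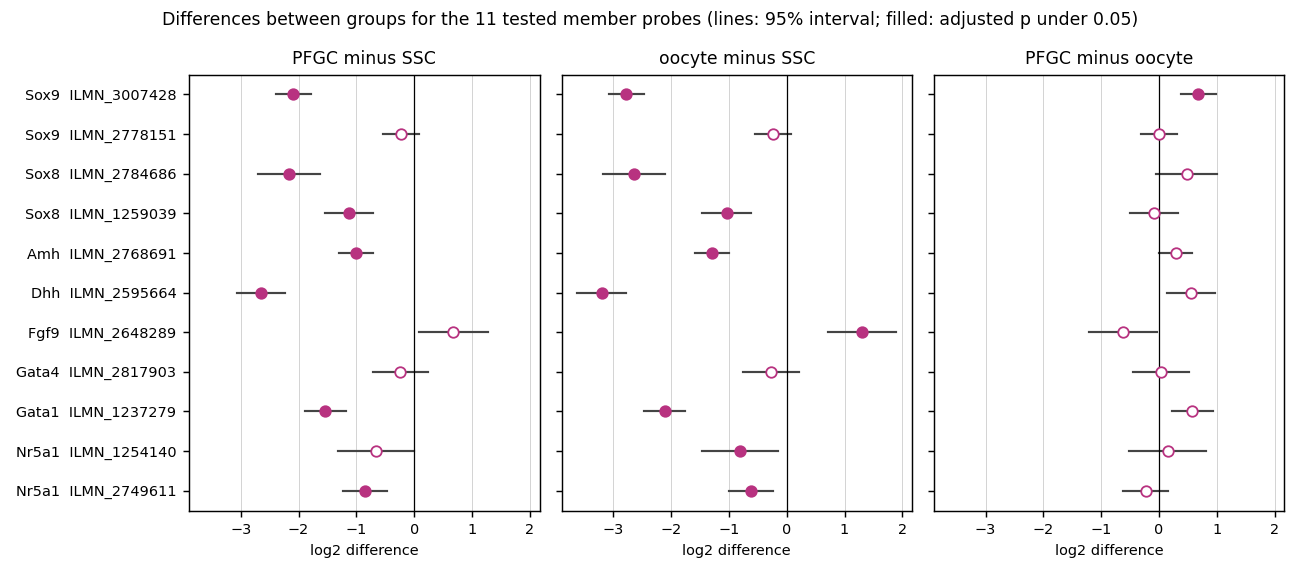
Log2 differences (horizontal axis) of the 11 tested member probes in the 3 comparisons with 95% intervals; filled points have adjusted p under 0.05. Against SSC, Dhh, Sox9 (ILMN_3007428) and Sox8 lie furthest below 0 and Fgf9 above it, while between PFGC and oocytes the filled point is that of Sox9.

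Between PFGC and oocytes the share of members called was near that of all genes. Of 8 genes, 1 was called higher in PFGC and 0 lower by limma, against 10.1% called among all genes (6.8% higher and 3.3% lower, and 9.17% of probes called). At an unadjusted p under 0.05, 3 were higher (Sox9, Gata1 and Dhh) and 1 lower (Fgf9). Sox9 was 1.60-fold higher in PFGC (log2 difference 0.68, SE 0.14, adjusted p = 0.0152 by limma), with all 3 PFGC arrays above all 3 oocyte arrays on the normalized scale. It was no longer called when PFGC replicate 2 (adjusted p = 0.0725 by limma), oocyte replicate 1 (0.0696), oocyte replicate 2 (0.0634) or the arrays numbered 3 (0.0554) were left out, or without normalization (0.126). Gata1, detected on 2 PFGC arrays and no oocyte array, was not called (adjusted p = 0.0512 by limma). It was called under 7 of 22 alternatives, among them cyclic loess (0.0280) and the replicate block (adjusted p = 0.0472 by limma). Dhh, detected on 1 PFGC array and no oocyte array, was not called (adjusted p = 0.0902 by limma). It was called under 4 of 22 alternatives, among them 75th percentile scaling (0.0447) and cyclic loess (adjusted p = 0.0438 by limma). Neither gene has a measured oocyte level to give a size. Sox8, Amh, Gata4 and Nr5a1 were not called either. Ordered by level, the brighter Sox9 probe ran SSC, PFGC, oocytes with each step called, while the second Sox9 probe had a PFGC minus oocyte difference of -0.0028 and the second Sox8 probe one of -0.09, neither called by limma. With array weights 5 of the 8 genes were called between PFGC and oocytes. Of the 19934 kept probes, 2225 were then called higher in PFGC and 2271 lower, in place of 1104 and 723.

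Other genes of testis determination did not move one way. Of 18 listed, 12 were tested, and 6 were lower and 4 higher in PFGC than in SSC, with a median log2 difference of -0.51 against -0.06 over all genes. The shares among all genes were 26.8% lower and 23.7% higher. In oocytes 7 were lower and 4 higher, against 32.4% and 28.1% of all genes. The Sertoli gene Mro (maestro) was 6.07-fold lower in PFGC (log2 difference -2.60, SE 0.28), and the SOX9 relative Sox10 at least 3.57-fold lower. Sox3, the X-linked gene closest to Sry and a marker of spermatogonia, was 5.35-fold lower in PFGC and at least 30.1-fold lower in oocytes (adjusted p = 4.22e-09 by limma), while its other probe gave log2 differences of -1.74 and -1.89. In the other direction Zfpm2, which encodes the GATA4 cofactor FOG2, had a log2 difference of 1.36 in PFGC (adjusted p = 8.40e-05 by limma), and the insulin receptor family genes Igf1r (1.19) and Insr (0.92) were also higher. Ptgds, the prostaglandin D2 synthase that SOX9 activates, was lower (-1.10, adjusted p = 5.60e-04 by limma). Sry, Map3k4, Six4, Emx2 and Nr0b1 were detected on no array.

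The listed genes for products of Sertoli cells were mostly lower outside SSC, but the list was chosen with earlier results of these data known. Its counts therefore support nothing about Sertoli products as a set. Of 20 listed, 15 were tested, and 9 were lower and 3 higher in PFGC than in SSC, with a median log2 difference of -1.40 (-0.06 over all genes). Among all genes 26.8% were lower and 23.7% higher. In oocytes 10 were lower and 4 higher, with a median of -2.56, against 32.4% and 28.1% of all genes. The homeobox gene Rhox8 was 8.87-fold, Cst9 5.46-fold and the tight junction gene Cldn11 5.18-fold lower in PFGC, and the defensin gene Defb36 was at least 269-fold lower in oocytes than in SSC. Inha (1.31), Kitl (0.96) and Rhox5 (0.68) were the members called higher in PFGC. The summed deposited signal of the 17 genes with a probe ran from 91703 to 100223 on SSC arrays, from 35944 to 47587 on PFGC arrays and from 23377 to 28611 on oocyte arrays, and Fate1 and Tsx were detected on no array. Against oocytes 8 of the 15 were higher and 1 lower in PFGC (6.8% and 3.3% of all genes), with Defb36 at least 56.5-fold higher. Cst9 and Rhox5 were also called higher in PFGC and were detected on 1 of 3 oocyte arrays each. In bulk samples, fewer cells of a type and less RNA per cell cannot be told apart. The part of Sertoli cells among the SSC and PFGC preparations in the member values was not tested.

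**Figure D3:**
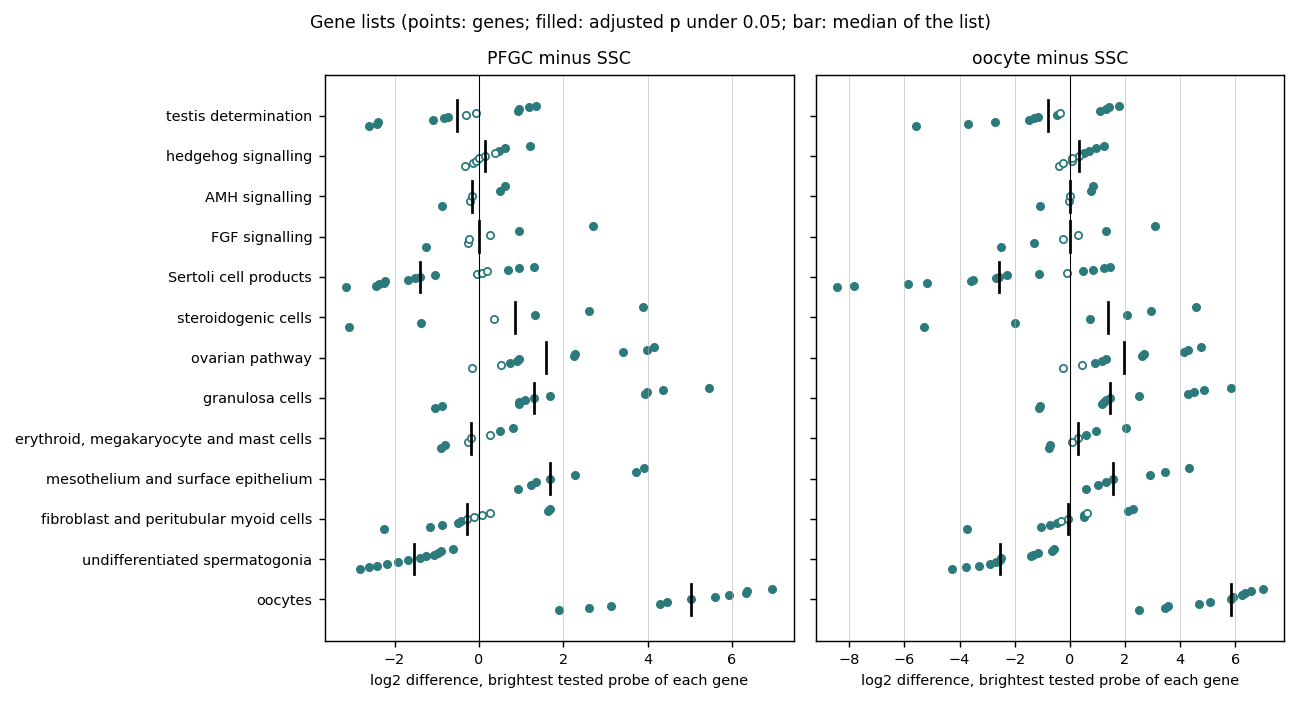
Log2 differences from SSC (horizontal axis) of the tested genes of 13 lists in PFGC (left) and oocytes (right); points are genes, filled where adjusted p was under 0.05, and bars are list medians. Sertoli products and spermatogonial markers lie mostly below 0, and ovarian, granulosa, epithelial and oocyte genes mostly above it.

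The receptors and transducers of the 3 ligands were counted against the 26.8% of all genes lower and 23.7% higher in PFGC than in SSC. Of 9 tested hedgehog genes, 3 were higher and 0 lower by limma in PFGC than in SSC and 6 were not called (at an unadjusted p under 0.05 the count of lower genes was also 0). The DHH receptor gene Ptch1, itself a target of the pathway, had a log2 difference of -0.07 in PFGC (adjusted p = 0.697 by limma) and 0.08 in oocytes. Sufu, which holds GLI factors back, was 2.32-fold higher in PFGC (adjusted p = 4.35e-04 by limma), with 0.45 on the log2 scale for its other probe, and Disp1, which releases hedgehog ligands, 1.53-fold higher. Gli1, Boc and Gas1 were detected on no array. Of 5 tested AMH pathway genes, Amhr2, the AMH type 2 receptor, was lower in PFGC (-0.88, SE 0.15, adjusted p = 8.85e-04 by limma) and in oocytes (-1.08), and its other 2 probes fell by 1.07 and 1.30 in PFGC. Acvr1 (0.50) and Smad5 (0.61) were higher in PFGC, though another Smad5 probe gave -0.20. Of 6 tested FGF genes, Fgfr2, the receptor through which FGF9 acts in Sertoli precursors, was 6.56-fold higher in PFGC (log2 difference 2.71, SE 0.13) and 8.39-fold higher in oocytes, with other probes down to 0.52 and 0.59. Spry4, a feedback inhibitor of FGF signalling, was 1.95-fold higher and Etv5, an FGF and GDNF target, 2.39-fold lower in PFGC (its other probe gave a log2 difference of -0.51).

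**Figure D4:**
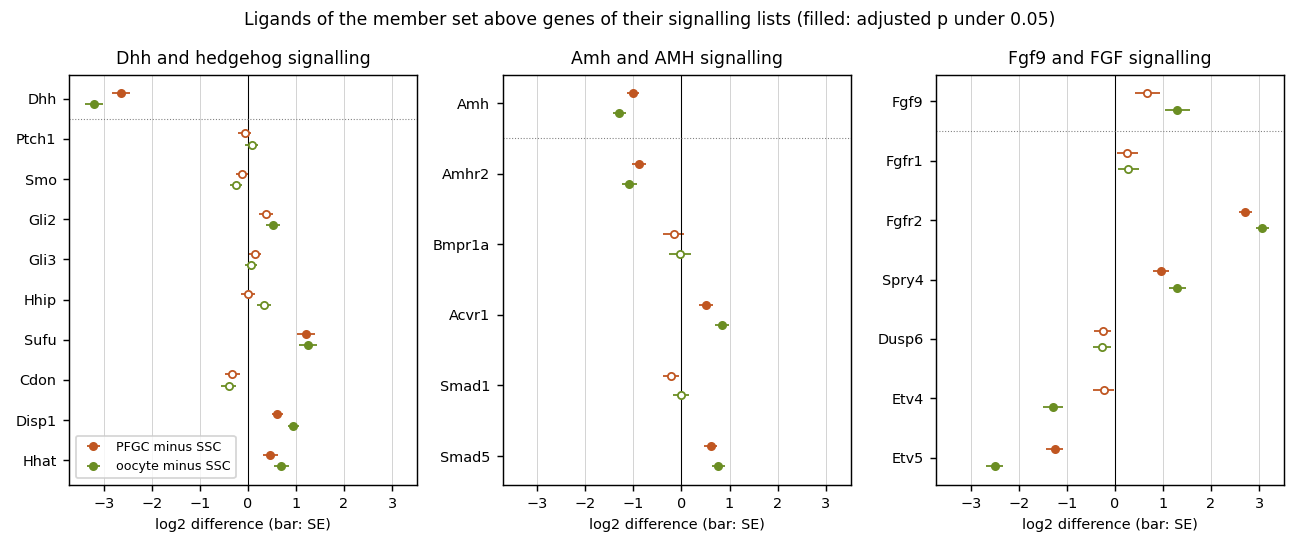
Log2 differences from SSC (horizontal axis, bars are SE) of Dhh, Amh and Fgf9 (top of each panel) and of the tested genes of their signalling lists, in PFGC and oocytes; filled points have adjusted p under 0.05. Dhh lies far below its listed pathway genes, Amh falls beside Amhr2, and Fgf9 and Fgfr2 lie on the same side of 0.

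The listed genes of the opposing ovarian programme were mostly higher in PFGC and oocytes than in SSC. This list and the granulosa list were also chosen with earlier results known, so their counts support nothing about either set. Of 10 tested ovarian pathway genes, 8 were higher and 0 lower by limma in PFGC than in SSC (lower at an unadjusted p under 0.05: 0), with a median log2 difference of 1.60, and the counts were the same in oocytes (median 1.96). Among all genes 23.7% were higher and 26.8% lower in PFGC, and 28.1% and 32.4% in oocytes. The homeobox gene Irx3 was 17.7-fold higher in PFGC (SE of the log2 difference 0.18), Fst, which encodes the activin antagonist follistatin, at least 8.19-fold, and Runx1 at least 5.83-fold, although a second Runx1 probe gave 0.51. Granulosa markers, which share Foxl2 and Fst with that list and Inha, Kitl and Fshr with the Sertoli list, were higher in 9 of 11 and lower in 2, Fshr and Amhr2, with a median of 1.31. On SSC arrays, Bmpr1b, Esr2, Foxl2, Fst and Nr5a2 were not detected. The summed deposited signal of the 11 granulosa genes ran from 14636 to 19349 on SSC arrays, from 22236 to 27482 on PFGC arrays and from 30139 to 37348 on oocyte arrays. The part of granulosa cells in the levels of Gata4, Nr5a1 and Amh was not tested.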

How the data were processed

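Levels were measured on 9 Illumina arrays. The submitters' processing notes name GenomeStudio, without a version. Per the file headers, the deposited non-normalized table gives each probe a linear signal intensity and a detection p-value on each array. A second deposited table holds the authors' processed intensity, with a median of 112 in every column, linear, uncentred and in the same direction; its method is not stated. No column was left unmapped.

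Here, with limma 3.58.1 in R 4.3.3, intensity was corrected by the normal-exponential model using detection p-values (offset 16), quantile normalized and taken to log2. Probes detected (p under 0.01) on at least 3 arrays were kept, 19934 in all. One fit held all 9 arrays with the 3 groups as terms, two-sided, adjusted over all kept probes, with calls at adjusted p under 0.05. The median SE of a log2 difference was 0.16, a precision limited by the number of arrays. Symbols were updated by Entrez identifier for 99.8% of 34885 probes with 1 symbol, through RefSeq genes of GRCm38.p6; 18 probes had several and 10378 none here. A gene's value is that of its kept probe with the highest mean. In simulated data for PFGC against SSC over 19934 probes, 63 of 100 changes of 1 log2 unit and 96 of 100 of 2 units were recovered, with 11 false calls. Only these probes were changed there, whereas 48.1% of kept probes were called in the data, and the simulated noise was independent between arrays. The simulation therefore checks the code and does not give the recovery or error rate of the calls reported here.

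The members and the 13 gene lists were chosen with earlier results of these data known. Named genes are all members, up to 3 called genes with the largest change per list and comparison, and the 3 genes with the profile most like that of each called member; Zfpm2, Insr, Igf1r, Ptgds, Ptch1, Inha and Kitl were named after their values were seen, as were genes not detected. Arrays with the same replicate number deviated together from their group means (r = 0.14 to 0.56 over 9 pairs, every pair above 0.1). Between arrays of different number r ran from -0.42 to 0.25 over 18 pairs. PFGC replicate 2 was as close to oocyte replicate 1 (0.25) as to oocyte replicate 2 (0.23). Only the arrays numbered 3 were thus set apart, and pairing of numbers 1 and 2 is not shown. The labels do not explain the numbers, and the main fit held no replicate block, which was run as an alternative. No replicate pair held the same values across the array. Alternatives covered background, normalization, filter, probe choice, variance model and left-out arrays.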

Additional observations from a re-analysis of the deposited data

How the results depend on the processing

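Against SSC, the calls for Sox9 (ILMN_3007428), Sox8, Amh, Dhh and Gata1 were kept under every alternative that tested the probe, in PFGC and in oocytes, and so was that for Fgf9 in oocytes. Amh, Dhh, Gata1 and Fgf9 had passed the filter only through the group in which they were highest, and most alternatives used that filter. Alternatives that share the filter add no support for these genes. The sizes of the differences depended on background correction: the log2 difference of Dhh in PFGC ranged from -2.84 to -1.30, that of Sox9 from -2.19 to -1.44 and that of Gata1 from -1.74 to -0.65, smallest without correction or in the authors' processed intensity. Over all member probes and alternatives, 240 values in PFGC against SSC kept direction and side of the threshold and 5 became called, while in oocytes against SSC 237 did and 8 lost their call; 0 reversed in either. With only probes detected on all 9 arrays, 2 member genes were called in PFGC against SSC and 3 in oocytes against SSC, since 4 genes were left. With 1 probe a gene, fewer were tested, and 5770 and 6831 were called in place of 9591 and 11477 probes. Leaving out arrays gave 8087 to 9967 probes and 5 to 6 member genes in PFGC against SSC, 10234 to 11916 probes and 6 to 7 genes in oocytes against SSC.

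PFGC against oocytes depended most on the processing, and the cause was not tested. The 1827 probes called became 3477 with the replicate block and 4496 with array weights, and 651 to 2334 when arrays were left out. The fewest were called without PFGC replicate 2 (651), oocyte replicate 1 (712) or oocyte replicate 2 (792), followed by 1089 without PFGC replicate 3, 1135 without oocyte replicate 3 and 1264 without the arrays numbered 3, an alternative chosen after seeing the data. The 1 member gene called, Sox9, became 3 with 75th percentile scaling or cyclic loess, through added calls of Dhh and Gata1. The count became 2 with 1 probe a gene or the replicate block, 5 with array weights and 0 to 2 with arrays left out. The replicate block gave calls to Fgf9 and Nr5a1 in PFGC against SSC (7 member genes in place of 5) and to Gata1 in PFGC against oocytes, and changed no other call of a member. Values near 0 turned sign: the second Sox9 probe (0.0066 with percentile scaling, 0.055 with cyclic loess, -0.086 to 0.086 with arrays left out), the second Sox8 probe (0.0079 with cyclic loess, -0.28 to 0.038 with arrays left out), Gata4 (-0.21 without normalization, -0.16 with array weights, -0.23 to 0.18 with arrays left out) and Nr5a1 probe ILMN_1254140 (-0.052 without normalization, -0.065 to 0.57 with arrays left out). None of the values that turned sign was called by limma, with adjusted p from 0.362 to 0.985. Without normalization the median of all probes moved to -0.14, 0.10 and -0.26 in the 3 comparisons, and the higher share of calls to 59.0% from 47.4% in oocytes against SSC and to 27.8% from 60.4% in PFGC against oocytes. A chip block was not run, since no header used here names a chip. Signal near background limits Dhh, Amh, Gata1, Fgf9 and Dmrt1 in particular.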

Other observations

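Genes whose profile over the 9 arrays was most like that of a called member were found by the root mean square difference of log2 values after each gene's own mean was subtracted. This is a description over 9 arrays that share their groups. Sox9 was most like Jakmip1 (0.074), Rab26 (0.13) and Efhd1 (0.14), against a median of 1.18 over all genes. Dhh was most like Cytip (0.11), Atp13a4 (0.17) and Stac2 (0.20). Gata1 was most like Asz1, a piRNA pathway gene of germ cells (0.11), Sgsm3 (0.11) and Aldoc, which encodes a glycolytic aldolase (0.12). Sox8 was nearest to Fanca (0.17), Sema6c (0.21) and H2bfm (0.23), and Amh to Acer3 (0.075), Slc39a11 (0.082) and Kyat1 (0.084). Nr5a1 was nearest to Arhgap45 (0.14), Intu (0.15) and Slc2a8 (0.19). Fgf9, highest in oocytes, was nearest to the myelin gene Mbp (0.16), Klhl31 (0.20) and Sec16b (0.23).

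Genes of steroid-making cells, among them targets of NR5A1, did not move one way. In PFGC the brightest Nr5a1 probe was not called, while the second was called lower (log2 difference -0.85), and a link to these genes was not tested. Of 6 steroid genes tested, 3 were higher and 2 lower in PFGC than in SSC (median log2 difference 0.85), with Cyp17a1 at least 3.73-fold higher and Hsd17b3, whose enzyme makes testosterone in the testis, 8.45-fold lower. Cyp11a1 was 14.9-fold higher through its brightest probe, while its other probes gave -0.69 and 1.45. Epithelial genes of tissues that use Wt1 were higher in all 7 of the 9 listed that were tested (median 1.68), led by Krt8 (15.2-fold) and the mesothelial gene Upk3b (at least 9.32-fold). On SSC arrays 7 of these 9 were not detected. Fibroblast and peritubular genes, which could mark feeder cells, were higher in 2 and lower in 5 of 11 (median -0.29), among them Lum (3.22-fold higher) and Thy1 (4.73-fold lower), the latter also a surface marker of spermatogonia. The markers of undifferentiated spermatogonia were lower in all 12 in PFGC against SSC (median -1.54), with Gfra1, the GDNF receptor, 7.04-fold lower. Oocyte markers were higher in all 11 (median 5.03), with Nlrp5, a maternal effect gene, at least 72.0-fold higher. Among all genes 26.8% were lower and 23.7% higher in PFGC than in SSC. All these lists were chosen with earlier results of these data known, so their counts support nothing about the sets.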
